A study of Mus musculus with 6 samples.

Results

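Adherens junctions are the belts of cadherin contacts that hold neighbouring endothelial cells together. Vascular endothelial cadherin (VE-cadherin, encoded by Cdh5) reaches across the gap to its counterpart on the next cell, and its tail is anchored to actin through beta-catenin or plakoglobin and then alpha-catenin, while p120-catenin keeps the cadherin at the surface. Nectins and their adaptor afadin form a parallel adhesion system, and the immunoglobulin protein CD31 lies along the same borders. In lymphatic capillaries VE-cadherin is arranged in discontinuous buttons that let fluid in, and in collecting vessels in continuous zippers. Beta-catenin has a second role, as the transcription partner of the TCF and LEF factors when Wnt signals keep it from being destroyed.

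Such genes, chosen by name with earlier results of these data known, were read from a table of 22964 genes. They were Cdh5, Ctnnb1, Ctnna1, Ctnnd1, Jup, Pecam1, Afdn, Nectin2, Cd99l2 and Magi1. All 10 were in the table and all 10 passed the filter on low counts, with at least 538 and at most 21203 estimated counts in any sample. The cells were meningeal lymphatic endothelial cells (LECs) of wild-type male C57BL/6J mice, sorted as negative for CD45, a leukocyte protein, and positive for CD31 and podoplanin. There were 3 samples from old mice, aged 20 to 24 months, and 3 from young mice, aged 2 to 3 months, and no mouse was treated. The mice came from 1 of 2 suppliers, and the labels do not tie samples to suppliers. Nothing in the labels says whether a sample was 1 mouse or a pool, so the spread between samples may be partly technical.

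Counts summed to 14285794 to 20886836 in the old samples and 15733100 to 21043945 in the young samples. Prox1, the factor that sets lymphatic fate, had 932 to 1410 CPM (estimated counts scaled to a common library size) in old and 877 to 945 CPM in young cells, and Lyve1, which encodes a lymphatic hyaluronan receptor, had 1417 to 1593 CPM in old and 1016 to 1338 CPM in young cells. Flt4, the receptor for VEGF-C, averaged 2823 ± 208 CPM in old and 2001 ± 310 CPM in young cells (SD, n = 3 each). Pdpn, the podoplanin gene, had 57.8 to 142 CPM in old and 61.9 to 79.7 CPM in young cells. Ptprc, which encodes the CD45 that was selected against, had 31.0, 30.7 and 62.9 CPM in old samples 1, 2 and 3 and 0.993, 57.4 and 72.7 CPM in young samples 1, 2 and 3.

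Sequences upstream of an annotated start site are shown for the 2 members with the largest fold difference between the ages, Ctnnb1 and Nectin2. Each is the stretch of 250 bases before a start site in the RefSeq annotation of GRCm38.p6, at chr9:120933150-120933399 on the plus strand for Ctnnb1 and at chr7:19749574-19749823 on the minus strand for Nectin2. Both start sites lie inside the gene spans given with the values, which reach to the farthest transcript end. Ctnnb1 has a second window, at chr9:120933328-120933577, which is not printed and held 0 motif matches. Bases just after the start were found in 1 annotated Ctnnb1 transcript for the printed window and in 3 for the second. Capitals mark a match to an ETS motif, the only match found among 3 motifs searched.
Ctnnb1: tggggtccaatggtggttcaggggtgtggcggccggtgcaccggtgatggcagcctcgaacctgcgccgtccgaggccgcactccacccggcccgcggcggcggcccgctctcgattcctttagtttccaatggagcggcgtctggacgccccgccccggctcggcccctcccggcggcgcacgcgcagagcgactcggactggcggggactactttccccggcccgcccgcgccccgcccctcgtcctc
Nectin2: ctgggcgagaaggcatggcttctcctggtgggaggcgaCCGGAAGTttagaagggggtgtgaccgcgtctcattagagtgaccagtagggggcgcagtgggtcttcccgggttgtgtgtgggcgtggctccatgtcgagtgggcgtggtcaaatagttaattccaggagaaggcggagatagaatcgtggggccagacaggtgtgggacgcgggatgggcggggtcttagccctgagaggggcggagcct

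The Ctnnb1 window was 74.8% G and C with 35 CpG pairs, and the Nectin2 window 62.0% with 16. The motifs were CCGGAAGT for ETS factors, the family that holds several endothelial regulators, CTTTGAT for TCF and LEF factors and TGTTTAC for FOXO factors, each read on both strands, and none of them overlaps another. Of 32851 windows of the same length, 2.88% held the ETS motif, 3.21% the TCF and LEF motif and 3.17% the FOXO motif. The Nectin2 match began 212 bases before the start site. In 10 windows of the 7 members with an entry, this was the single match.

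No member passed the age test after adjustment over all 15394 genes tested, and nor did any other gene (edgeR quasi-likelihood test with Benjamini-Hochberg adjustment, 0% called at 0.05, smallest adjusted p = 0.235). Without adjustment, edgeR gave 441 genes higher and 415 lower in old cells at 0.05. This balance depended on scaling, with 285 higher and 546 lower by library size only. By the 8 pan-endothelial markers it was 97 higher and 1537 lower. These markers were all higher in old cells, so scaling to them moves other genes down by construction. DESeq2 called 130 genes after adjustment, 66 higher (0.429% of tested genes) and 64 lower, and limma-voom called 3, and 0 of these were members. The members' values lay mostly higher in old cells. The members were chosen with earlier results of these data known, so setting their counts beside the shares over all genes is no independent test. Every old sample was above every young sample for 6 of 10 members, Cdh5, Ctnnb1, Ctnna1, Jup, Pecam1 and Nectin2, against 5.56% of all tested genes and 9.79% of the 3780 tested genes of at least 50 CPM, the range in which all members fall. None of the 10 had every old sample below every young one, against 6.44% of all tested genes. The same 6 members had an unadjusted p under 0.05 with higher values in old cells, against 2.86% of all tested genes and 6.43% of those of at least 50 CPM, and 0 members had one with lower values, against 2.7% of all tested genes. This count of 6 was 2 without young sample 2 or without old sample 3, 3 without young sample 3, 3 with library size only, and 0 with libraries scaled to 8 pan-endothelial markers, an alternative chosen after the data were seen. Because that scaling moves genes down by construction, its 0 is no separate test of the members. Fold changes on the log2 scale were positive for 8 members and negative for 2, with a median of 0.64, beside a median of 0.02 over all tested genes and 0.10 over those of at least 50 CPM.

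**Figure D1:**
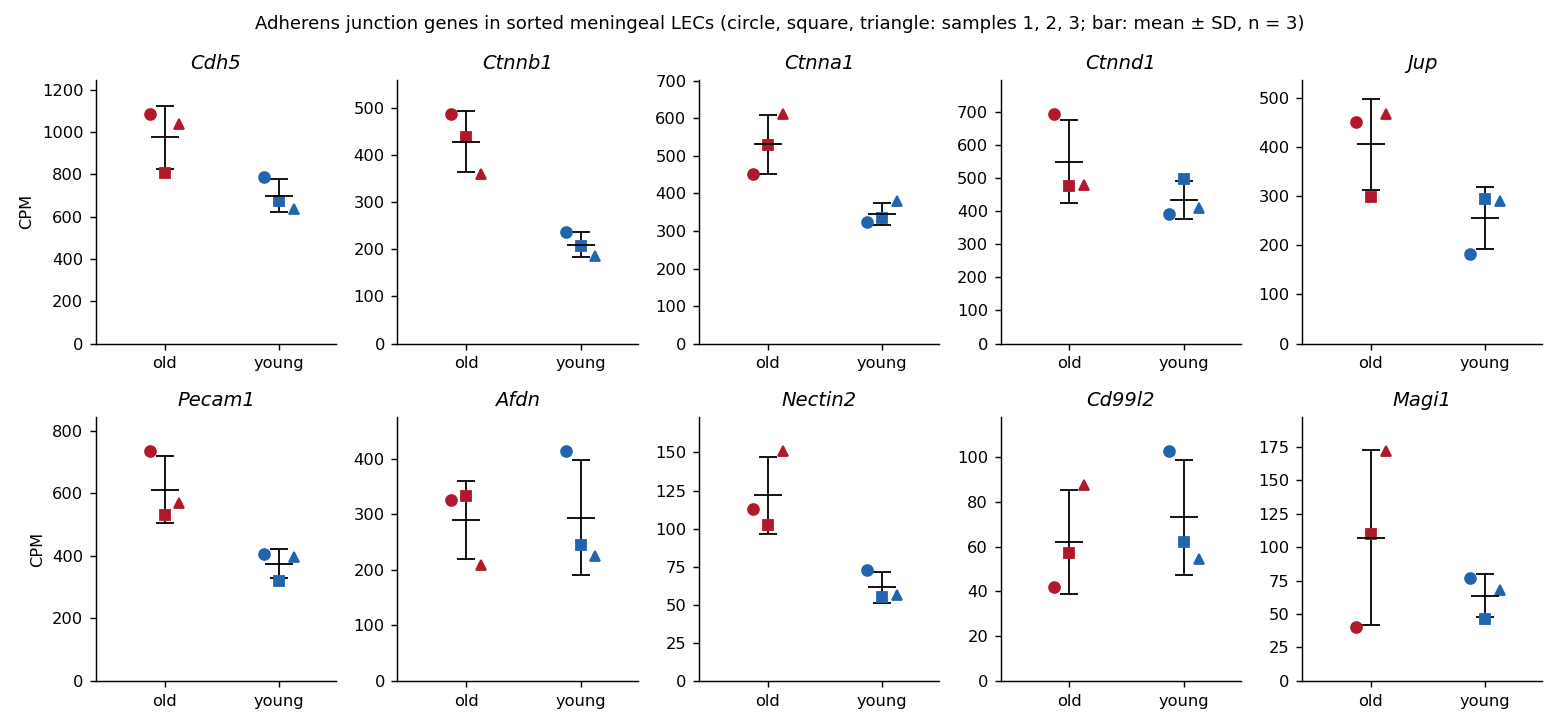
Level of each of the 10 adherens junction genes in CPM (vertical axis, from 0) in old and young samples; circles, squares and triangles are samples 1, 2 and 3 of a group, and bars are the mean ± SD of 3 samples. The old and young points do not overlap for Cdh5, Ctnnb1, Ctnna1, Jup, Pecam1 and Nectin2, and they overlap for Ctnnd1, Afdn, Cd99l2 and Magi1.

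Cdh5 (ENSMUSG00000031871; chromosome 8, 104101625 to 104144511, plus strand, GRCm38), the cadherin of the endothelial junction, had 1084, 806 and 1035 CPM in old samples 1, 2 and 3 and 787, 675 and 635 CPM in young samples 1, 2 and 3. The groups did not overlap, but old sample 2 was only slightly above young sample 1. Its log2 fold change was 0.48 (SE 0.19; edgeR unadjusted p = 0.0355, adjusted p = 0.888).

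Beta-catenin showed the largest fold difference of the 10 in the main edgeR fit, just above Nectin2 at a log2 fold change of 0.99. The order depended on the fit. Limma-voom gave 1.03 for Nectin2 and 1.01 for Ctnnb1. Without old sample 1, edgeR gave 1.14 for Magi1, 1.04 for Nectin2 and 0.93 for Ctnnb1. Ctnnb1 (ENSMUSG00000006932; chromosome 9, 120929216 to 120960507, plus strand) had 486, 438 and 359 CPM in old samples 1, 2 and 3 and 237, 206 and 185 CPM in young samples 1, 2 and 3. The lowest old value was well above the highest young value, and the means were 428 ± 64.2 and 209 ± 26.3 CPM (SD, n = 3 each). Its log2 fold change was 1.03 (SE 0.23), or 2.04-fold, with an unadjusted p = 0.00178 that ranked 34 among all tested genes and an edgeR adjusted p = 0.687. The adjusted p was 0.0578 in DESeq2 and 0.691 in limma-voom, and ran from 0.0578 to 1 over the alternatives tried. Ctnnb1 shares 759 exonic bases with Ulk4, which lies on the opposite strand. No label says whether counting used strand, and Ulk4 itself had 0.0748 to 1.37 CPM in old and 0.152 to 2.54 CPM in young cells.

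Jup (ENSMUSG00000001552; chromosome 11, 100368958 to 100397763, minus strand) encodes plakoglobin, the close relative of beta-catenin that can take its place on the cadherin tail and that also sits in desmosomes. It had 450, 299 and 467 CPM in old samples 1, 2 and 3 and 183, 295 and 289 CPM in young samples 1, 2 and 3. Old sample 2 and young sample 2 were nearly equal, so the groups barely separated. Jup had a log2 fold change of 0.66 (SE 0.29; edgeR adjusted p = 0.888).

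Ctnna1 (ENSMUSG00000037815; chromosome 18, 35118859 to 35254779, plus strand), the alpha-catenin that links the complex to actin, had 452, 529 and 612 CPM in old samples 1, 2 and 3 and 325, 335 and 380 CPM in young samples 1, 2 and 3. Here old sample 3 was the highest, whereas old sample 1 was the highest for Cdh5, Ctnnb1 and Pecam1. The log2 fold change was 0.61 (SE 0.21; edgeR unadjusted p = 0.0178, adjusted p = 0.855). Lrrtm2, a gene on the opposite strand that shares 95 exonic bases with Ctnna1, had 11.7 to 32.1 CPM in old and 34.7 to 53.9 CPM in young cells.

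Ctnnd1 (ENSMUSG00000034101; chromosome 2, 84600071 to 84650765, minus strand), which encodes p120-catenin, overlapped between the ages. It had 693, 476 and 480 CPM in old samples 1, 2 and 3 and 391, 498 and 409 CPM in young samples 1, 2 and 3. Only old sample 1 was above young sample 2. The log2 fold change was 0.35 (SE 0.23; edgeR adjusted p = 0.922), and it was 0.14 without old sample 1. Ctnnd1 shares 4482 exonic bases with the readthrough gene Gm28635 on the same strand, so its level is uncertain.

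For the nectin and afadin pair, the values separated by age for the receptor and overlapped for the adaptor. Nectin2 (ENSMUSG00000062300; chromosome 7, 19716644 to 19750483, minus strand), an immunoglobulin-like adhesion receptor, had 113, 102 and 151 CPM in old samples 1, 2 and 3 and 72.9, 55.1 and 56.3 CPM in young samples 1, 2 and 3. No old sample fell into the young range, and the log2 fold change was 0.99 (SE 0.35; edgeR unadjusted p = 0.0195, adjusted p = 0.863). Afdn (ENSMUSG00000068036; chromosome 17, 13760539 to 13906150, plus strand), the adaptor that ties nectins to actin, had 326, 333 and 209 CPM in old samples 1, 2 and 3 and 413, 244 and 225 CPM in young samples 1, 2 and 3. The highest and the lowest Afdn values were a young and an old sample, with the others mixed between them, and the log2 fold change was -0.02 (SE 0.32). Without young sample 1, the Afdn value was 0.30. The longest Afdn transcript shares 999 bases at 95.9% identity with a transcript of Zfp160, so reads in that stretch are uncertain.

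Pecam1 (ENSMUSG00000020717; chromosome 11, 106654217 to 106750628, minus strand) encodes CD31, 1 of the 2 proteins the cells were sorted to carry. It had 733, 531 and 568 CPM in old samples 1, 2 and 3 and 404, 320 and 397 CPM in young samples 1, 2 and 3, with a clear gap between the groups. The log2 fold change was 0.71 (SE 0.22; edgeR unadjusted p = 0.0104, adjusted p = 0.797). Cd99l2 (ENSMUSG00000035776; chromosome X, 71420060 to 71492849, minus strand), a border protein that takes part in the passage of leukocytes through endothelium, had 42.0, 57.1 and 87.6 CPM in old samples 1, 2 and 3 and 102, 62.3 and 54.2 CPM in young samples 1, 2 and 3. Its groups overlapped, and the log2 fold change was -0.23 (SE 0.46), or 0.10 without young sample 1.

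Magi1 (ENSMUSG00000045095; chromosome 6, 93675455 to 94283917, minus strand), a junction scaffold that binds beta-catenin, had the widest relative spread of the members in old cells. It had 40.3, 110 and 172 CPM in old samples 1, 2 and 3 and 77.2, 46.4 and 68.0 CPM in young samples 1, 2 and 3. The lowest and the highest of the 6 values were both old samples, with a coefficient of variation of 61.3% in old and 24.8% in young cells. In young cells Cd99l2, at 35.4%, and Afdn, at 35.3%, varied more. The log2 fold change was 0.75 (SE 0.53; edgeR adjusted p = 0.928), with 0.23 without old sample 3 and 1.14 without old sample 1.

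Levels were compared between genes per kilobase of annotated exon. On this scale Cdh5 was the most abundant member, at 232 ± 35.4 CPM per kb in old and 166 ± 18.7 CPM per kb in young cells (SD, n = 3 each), and was above Pecam1 in all 6 samples. Pecam1, Ctnna1, Ctnnd1, Ctnnb1 and Jup followed, at group means of 63.0 to 98.1 CPM per kb in old and 39.8 to 60.0 CPM per kb in young cells. Within these 5 the order did not hold across samples: each was above the next in 3 or 4 of 6 samples. Jup was above Afdn in 5 of 6 samples, Afdn above Nectin2 in 4, Nectin2 above Cd99l2 in 5 and Cd99l2 above Magi1 in 6. With the longest coding transcript as the length, Jup stood in place 4 and Ctnnd1 in place 6, and no other place changed.

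**Figure D2:**
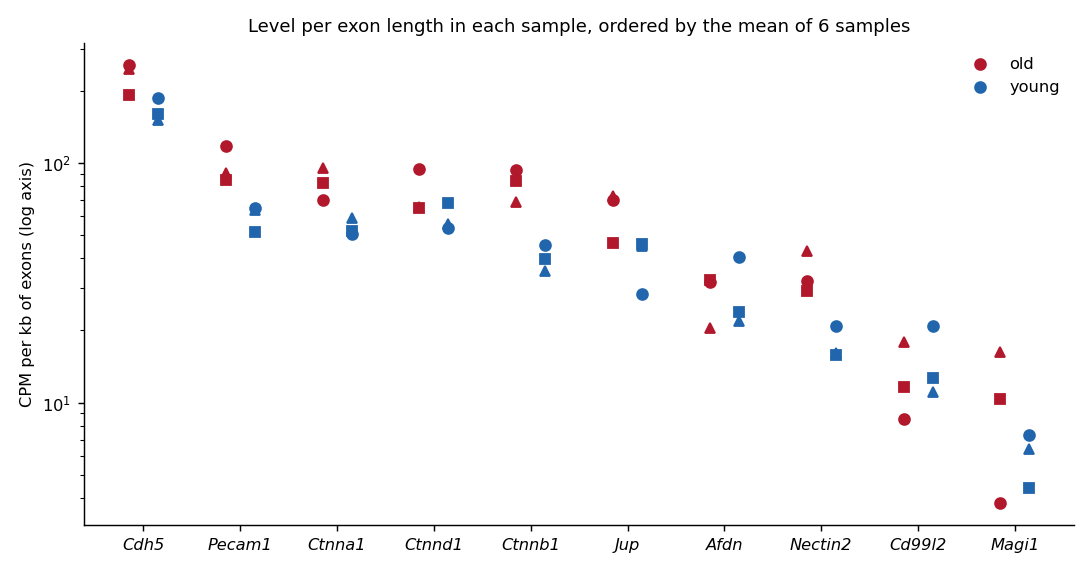
Level in CPM per kilobase of exons (log axis) of the 10 adherens junction genes in each old and young sample, ordered by the mean of 6 samples; symbols are samples 1, 2 and 3 as circles, squares and triangles. Cdh5 stands above the others in every sample, and Magi1 is lowest in every sample.

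Transcripts that mark endothelium in general were also higher in old cells, and those of fibroblasts were lower. The 8 pan-endothelial markers, Kdr, Erg, Eng, Tie1, Robo4, Egfl7, Esam and Tek, all had positive log2 fold changes with a median of 0.62, close to the members' 0.64, and their summed level was 2239 to 3566 CPM in old and 1622 to 2026 CPM in young samples. The 8 lymphatic markers summed to 16548 to 20310 CPM in old and 10460 to 12962 CPM in young samples, with a median of 0.60. The 8 fibroblast markers were all lower, with a median of -1.17 and sums of 2587 to 3070 CPM in old and 5334 to 8199 CPM in young samples. Of the 9 blood endothelial markers 8 were tested and all 8 were positive, with a median of 0.84, above the members' 0.64. DESeq2 called 2 of these 8 higher, Vwf and Abcb1a, where 0.429% of all tested genes were called higher. Old samples lay above all young ones for 4 of the 8, beside 5.56% of all tested genes. The 9 markers had sums of 1170 to 1713 CPM in old and 597 to 828 CPM in young samples. In bulk samples, fewer cells of a type and less RNA per cell cannot be told apart, and the part of these shifts in the members' values was not tested.

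**Figure D3:**
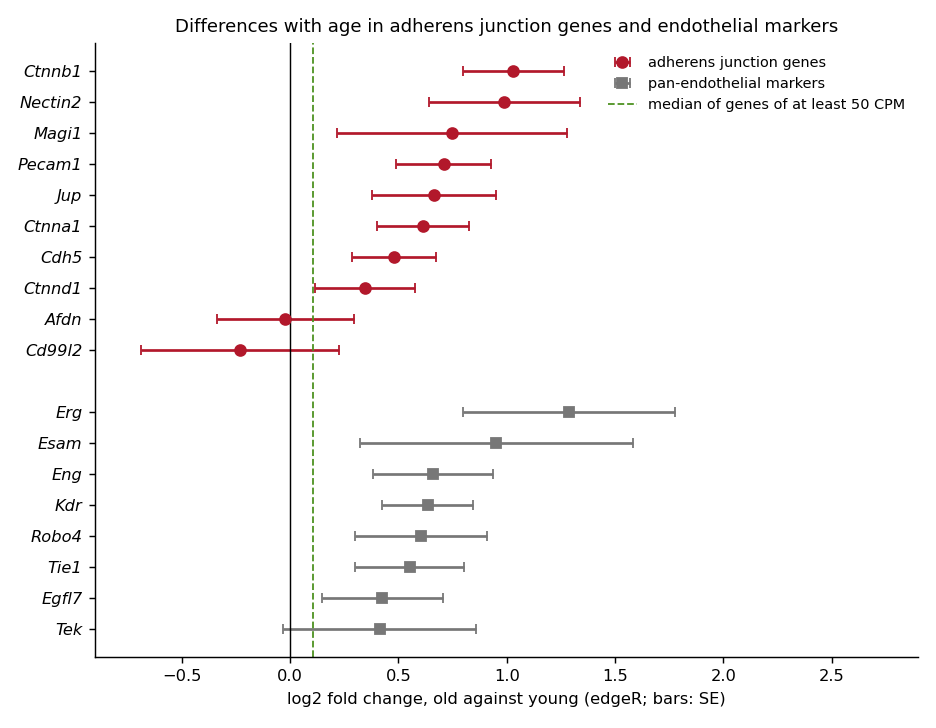
Log2 fold change of old against young from edgeR (horizontal axis; bars are the SE) for the 10 adherens junction genes and, below them, 8 pan-endothelial markers; the dashed line is the median of the tested genes of at least 50 CPM, 0.10. The junction genes run from -0.23 to 1.03 and the markers from 0.41 to 1.29, with Afdn and Cd99l2 alone below 0.

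Ratios of counts within a library do not depend on how libraries are scaled. Against Cdh5, the count of Ctnnb1 was 0.448, 0.544 and 0.347 in old samples 1, 2 and 3 and 0.301, 0.306 and 0.291 in young samples 1, 2 and 3. Each old library thus held more Ctnnb1 per Cdh5 than any young library, and the young libraries lay close together. The mean log2 ratio differed by 0.55, or 1.47-fold, with p = 0.1 by an exact two-sided permutation test, which is the smallest p that 3 samples against 3 allow. Adjusted over the 20 ratios tested, the permutation p was 0.4.

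The Nectin2 to Cdh5 ratio was 0.104, 0.127 and 0.146 in old samples and 0.0927, 0.0816 and 0.0887 in young samples, also without overlap (log2 difference 0.51, exact permutation p = 0.1). Cd99l2 went the other way, with 0.0388, 0.0709 and 0.0846 per Cdh5 in old samples and 0.130, 0.0923 and 0.0855 in young samples (log2 difference -0.71, exact permutation p = 0.1). The last old and young values nearly touched. The ratios of Ctnna1, Ctnnd1, Jup, Pecam1, Afdn and Magi1 to Cdh5 overlapped between the ages. How many of all tested genes would separate over Cdh5 was not computed, so the separations have no background. The Jup to Ctnnb1 ratio, which compares the alternative partners of the cadherin tail, was 0.927, 0.682 and 1.30 in old samples and 0.774, 1.43 and 1.57 in young samples, with overlapping groups and an exact permutation p = 0.4.

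**Figure D4:**
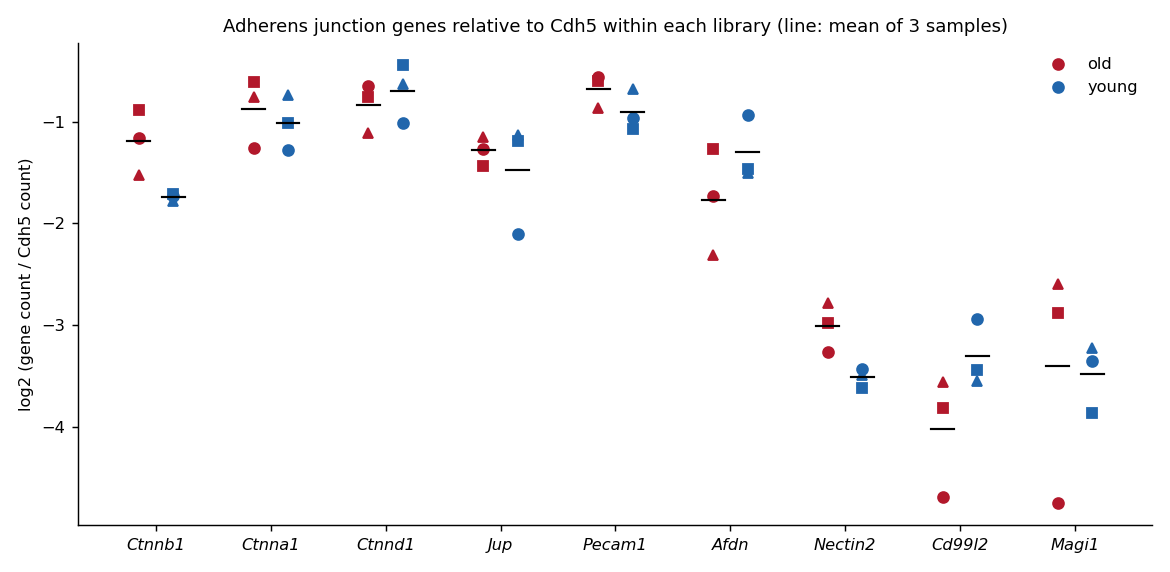
Log2 ratio of each gene's count to the Cdh5 count of the same library (vertical axis) for 9 adherens junction genes in old and young samples; symbols are samples 1, 2 and 3 as circles, squares and triangles, and lines are means of 3 samples. Old points lie above all young points for Ctnnb1 and Nectin2 and below them for Cd99l2, and the other 6 genes overlap.

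With Prox1 as the denominator, Nectin2 and Ctnna1 did not overlap between the ages (exact permutation p = 0.1, adjusted p = 0.4 for each). The share of all tested genes that would separate over Prox1 was not computed, so this count has no background. Nectin2 had 0.113, 0.110 and 0.107 per Prox1 in old samples and 0.0807, 0.0583 and 0.0642 in young samples. Ctnna1 had 0.454, 0.567 and 0.434 in old samples and 0.359, 0.355 and 0.433 in young samples, where old sample 3 and young sample 3 were almost equal. For Ctnnb1, old samples 1 and 2 had 0.488 and 0.470 per Prox1, old sample 3 had 0.255, and the young samples had 0.262, 0.218 and 0.210. Set against the geometric mean of the 8 pan-endothelial markers, a denominator chosen after the data were seen, all 10 members overlapped between the ages. On that scale Ctnnb1 was 1.76, 2.02 and 1.56 in old samples and 1.75, 1.33 and 1.07 in young samples, a log2 difference of 0.39 with an exact permutation p = 0.2.

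Ctnnb1 was also set beside the 3779 other tested genes of at least 50 CPM, by the root mean square distance between log2 CPM values centred on each gene's mean over the 6 samples. The 5 nearest were Ctso, which encodes a cathepsin, Irgm2, an interferon-inducible GTPase, Cnnm3, B2m, the light chain of class I molecules, and Prkag2, a regulatory subunit of the AMP-activated kinase, at distances of 0.11 to 0.15 log2 units. B2m, for instance, had 1921, 2011 and 1663 CPM in old samples and 965, 897 and 984 CPM in young samples. None of the 5 was a junction gene. Pecam1 was the nearest member, at 0.24, with 0.82% of those genes nearer, and Magi1 the farthest, at 0.80, with 67.1% nearer.

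Genes of the same pathways were read from lists, and none of their members passed the edgeR test over all genes. Among 21 tested genes for other cadherins, catenins, nectins and their partners, 13 were positive and 8 negative, with a median of 0.14. Every old sample was above every young one for 5 of them and below for 2, beside 5.56% and 6.44% of all tested genes. Cdh11, a cadherin of mesenchymal cells, had 164, 291 and 321 CPM in old samples and 1055, 479 and 342 CPM in young samples, a log2 fold change of -1.27 (SE 0.44), and the fibroblast markers were lower in the same samples. Magi3, a relative of Magi1, had 177, 86.9 and 202 CPM in old samples and 74.2, 72.4 and 78.1 CPM in young samples. Cdh1, the epithelial cadherin, had 10.6, 39.7 and 14.9 CPM in old samples and 6.14, 1.88 and 1.89 CPM in young samples. Cdh6 averaged 0.172 ± 0.153 CPM in old and 4.63 ± 5.42 CPM in young cells (SD, n = 3 each).

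Desmosomes are the other junctions in which plakoglobin sits. Dsp, the desmoplakin that lymphatic endothelium can carry at its cadherin junctions, had 0.0748, 0 and 3.56 CPM in old samples and 1.05, 0 and 2.97 CPM in young samples. Dsg2 and Pkp3 averaged 7.42 ± 10.5 and 2.04 ± 2.69 CPM in old and 2.19 ± 1.86 and 0.210 ± 0.364 CPM in young cells. Of 8 genes, 4 passed the filter, with 2 positive and 2 negative log2 fold changes. These were -1.83 for Perp, -0.14 (SE 2.08) for Dsp, 1.75 (SE 1.46) for Dsg2 and 3.21 (SE 2.21) for Pkp3. Their median of 0.81 falls in the gap between Dsp and Dsg2 and describes none of the 4. Only Perp had an unadjusted edgeR p under 0.05. Perp, a membrane protein of desmosomes and a p53 target, had 11.1, 20.8 and 22.1 CPM in old samples and 86.0, 53.9 and 52.8 CPM in young samples, a log2 fold change of -1.83 (SE 0.54) with an adjusted p = 0.76 in edgeR and 0.0498 in DESeq2. DESeq2 called 64 of the 15394 tested genes lower.

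Genes that act on VE-cadherin through phosphorylation, Rap1 or the CCM proteins numbered 20, of which 13 were positive, with a median of 0.26. The groups separated with old above young for 2 of them and below for 0, beside 5.56% and 6.44% of all tested genes, and 18 overlapped. Ptprb, the endothelial phosphatase VE-PTP that binds VE-cadherin, had 1356, 853 and 1211 CPM in old samples and 668, 746 and 592 CPM in young samples, with no overlap (log2 fold change 0.77, SE 0.22, edgeR adjusted p = 0.752). Ptprj, another receptor phosphatase, averaged 38.3 ± 34.3 CPM in old and 103 ± 69.0 CPM in young cells (SD, n = 3 each). Csk, a kinase that restrains Src, had 0.950 ± 0.319 and 3.63 ± 4.85 CPM, and Krit1, a CCM protein that binds Rap1, had 46.2 ± 33.8 and 23.6 ± 12.8 CPM, both with wide scatter.

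The destruction complex, which marks free beta-catenin for degradation, had 10 tested genes with 6 positive, a median of 0.15. The old samples lay above the young ones without overlap for 0 of them and below for 2, beside 5.56% and 6.44% of all tested genes. Apc, the scaffold of the complex, averaged 354 ± 108 CPM in old and 287 ± 47.4 CPM in young cells (SD, n = 3 each), and Apc2, its relative, 5.83 ± 6.69 and 2.32 ± 0.573 CPM. Btrc, the ligase adaptor that recognises phosphorylated beta-catenin, had 6.43, 12.8 and 18.7 CPM in old samples and 71.7, 31.6 and 34.8 CPM in young samples, with all old samples lower. Its log2 fold change was -1.86 (SE 0.69, edgeR unadjusted p = 0.0244, adjusted p = 0.888). Amer1, which brings the complex to the membrane, averaged 11.0 ± 5.94 and 28.3 ± 9.31 CPM and was also lower in all old samples (edgeR unadjusted p = 0.102). However, old sample 2, at 17.6 CPM, nearly touched young sample 1, at 18.4 CPM.

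Of 14 tested Wnt receptor and Dishevelled genes, 8 were positive, with a median of 0.14. All 14 overlapped between the ages and 0 had an unadjusted p under 0.05, where the shares over all tested genes (5.56% above, 6.44% below; 2.86% higher, 2.7% lower) would leave few of 14 on either count. Lrp6, a Wnt co-receptor, averaged 467 ± 143 CPM in old and 614 ± 121 CPM in young cells, the Frizzled receptors Fzd7 and Fzd6 176 ± 80.2 and 155 ± 145 CPM in old and 269 ± 51.0 and 74.1 ± 15.7 CPM in young cells, and Dvl2 30.3 ± 11.6 and 16.0 ± 6.40 CPM (SD, n = 3 each).

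Among 8 transcription partners of beta-catenin, 5 were positive and 3 negative, with a median of 0.52. The values ran widely, from -2.87 for Bcl9l to 2.57 for Lef1. All old samples lay above the young ones for 1 of the 8 and below for 1, beside 5.56% and 6.44% of all tested genes. Pygo1, a co-activator, had 8.75, 7.26 and 11.7 CPM in old samples and 42.3, 26.7 and 42.9 CPM in young samples, all old samples being lower, with an adjusted p = 0.822 in edgeR and 0.0392 in DESeq2. It was 1 of the 64 genes that DESeq2 called lower among 15394 tested. Tcf7l1, a TCF factor that often represses, had 79.3, 95.5 and 78.4 CPM in old samples and 4.28, 48.5 and 30.6 CPM in young samples, without overlap. Lef1 had 3.07, 61.2 and 56.3 CPM in old samples and 8.38, 8.38 and 3.51 CPM in young samples, so that old sample 1 was the lowest of the 6 and the other 2 old samples the highest. Bcl9l, a co-activator, had 0, 23.8 and 0 CPM in old samples and 80.4, 20.9 and 72.2 CPM in young samples.

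Known transcriptional targets of beta-catenin were split. Of 8 tested, 4 were positive and 4 negative, with a median of -0.01. Axin2, the most widely used target of the pathway, had 0, 1.38 and 13.7 CPM in old samples and 2.98, 1.17 and 7.70 CPM in young samples, which is too scattered to order the groups. Ccnd1, which encodes cyclin D1, averaged 104 ± 53.8 CPM in old and 78.0 ± 31.4 CPM in young cells. Tnfrsf19 and Apcdd1 averaged 3.08 ± 2.74 and 14.6 ± 17.4 CPM in old and 23.4 ± 22.2 and 2.40 ± 1.68 CPM in young cells, and Rnf43 0.923 ± 1.60 and 4.61 ± 7.08 CPM (SD, n = 3 each).

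**Figure D5:**
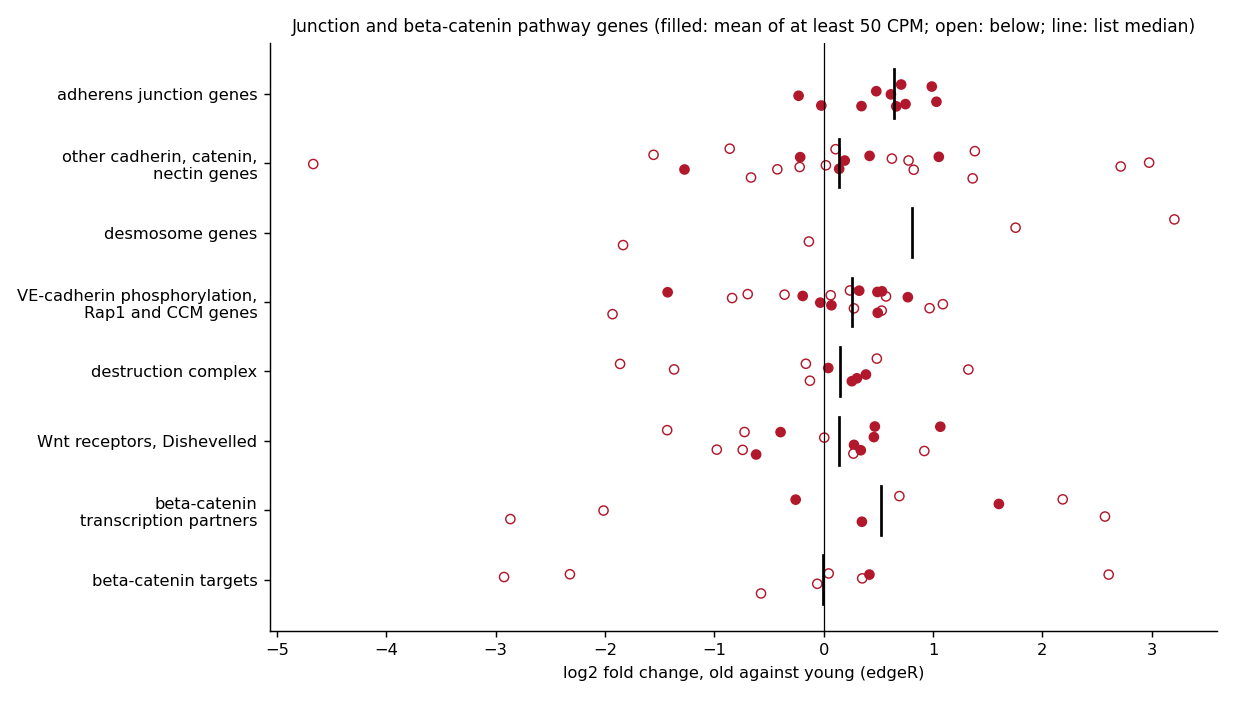
Log2 fold change of old against young (horizontal axis) of the tested genes in 8 lists; filled points have a mean of at least 50 CPM, open points less, and the black line is the list median. The adherens junction genes lie between -0.23 and 1.03, and open points of low level spread widest in the other lists.

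Markers of the other cell types that the sort could hold were uneven between libraries. The 12 macrophage markers summed to 837 to 1920 CPM in old and 642 to 4487 CPM in young samples, with 11 of 12 negative. The 8 mural cell markers summed to 859 to 1950 and 620 to 959 CPM, with 6 of 8 positive. Median log2 fold changes were -1.63 for the macrophage and 0.62 for the mural markers. Those of the arachnoid barrier, platelet and erythroid, and Schwann cell markers were 0.89, 0.54 and 0.21. Old sample 1, which held the highest Cdh5, Ctnnb1, Ctnnd1 and Pecam1 values, also held the highest sums of the lymphatic, pan-endothelial and mural markers. Arachnoid barrier markers summed to 205 to 1818 CPM in old and 273 to 354 CPM in young samples, led by Ptgds, while the keratin Krt8 was at 0.436 CPM or less in every sample. Platelet and erythroid markers summed to 2.92 to 461 and 79.4 to 299 CPM and Schwann cell markers to 12.6 to 142 and 44.7 to 78.8 CPM. Their part in the members' values was not tested. Without old sample 1, the log2 fold change of Ctnnb1 was 0.93 and that of Pecam1 0.56.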

How the data were processed

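RNA-seq of 6 samples was analysed from 1 table. The authors deposited estimated counts per Ensembl gene, already whole numbers. The submitters' processing notes name Salmon, FastQC and mm10, with no roles or versions. No label or header gives the annotation, strandedness or the step to genes. Per the labels' protocols RNA was amplified linearly, which can make coverage along transcripts uneven, so levels per kilobase are approximate.

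Symbols and positions (1-based) came from GENCODE M21 on GRCm38, with 22738 of 22964 genes matched. The age test was edgeR 4.0.16 under R 4.3.3 (filterByExpr at 10 counts and a total of 15, TMM, robust quasi-likelihood fit on age, two-sided), leaving 15394 genes, with Benjamini-Hochberg adjustment at 0.05. CPM uses TMM-adjusted library sizes, log2 CPM a prior count of 2, and ratios an offset of 0.5 counts. The self-test on simulated counts was run for edgeR, DESeq2 1.42.0 and limma 3.58.1.

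The members and lists were chosen with earlier results of these data known. The named-gene rule took all members, 5 sort checks, up to 4 genes per list by smallest p, and the 5 genes nearest to Ctnnb1; marker lists are given mainly as sums, and Axin2 and Krt8 were named after their values were seen. No 2 samples were the same library (smallest chi-square per degree of freedom 103). Alternatives were other scalings, filters, tests, a replicate block and leaving out each sample. Positions before a start site count back from it.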

Additional observations from a re-analysis of the deposited data

How the results depend on the processing

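No alternative called a member. Over all genes DESeq2 called 130 and limma-voom 3, and leaving out each sample in turn gave 0 to 1 calls. The log2 fold change of Ctnnb1 was 0.93 to 1.14 with a sample left out, 0.89 with library size only and 0.36 (SE 0.28) with libraries scaled to the 8 pan-endothelial markers, an alternative added after seeing the data. That scaling gave a median over all genes of -0.62, against 0.02 and gave a median member log2 fold change of 0.013, with Cdh5 at -0.19, Ctnna1 at -0.0055 and Ctnnd1 at -0.32. The members' median was 0.50 with library size only, where that of all genes was -0.12 and 3 members had an unadjusted p under 0.05, and 0.47 to 0.71 with a sample left out.

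Afdn changed sign at 0.00254 with RLE and DESeq2 and 0.00108 with the replicate block, and ran from -0.20 to 0.30 with a sample left out, as Cd99l2 did from -0.56 to 0.10. Over the pan-endothelial markers in place of Prox1, Cdh5 was at -0.17, Ctnna1 at -0.035, Ctnnd1 at -0.31 and Magi1 at -0.095. With a sample left out, the log2 ratio differences to Prox1 were -0.18 to 0.33 for Ctnnd1 and -0.50 to 0.14 for Afdn, and those to Cdh5 were -0.00221 to 0.33 for Ctnna1, -0.12 to 0.36 for Jup and -0.34 to 0.74 for Magi1. The cause was not tested.

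Same-numbered samples had correlations of their deviations of only 0.08, 0.05 and -0.01. Old sample 1 correlated best with young sample 1, and old sample 2 with young sample 3. Such low values cannot show whether samples were paired. With the replicate block, Ctnnb1 was at 1.03 with an edgeR adjusted p = 0.996, and 0 genes were called, with 319 higher and 393 lower at an unadjusted p under 0.05, against 441 and 415 without it. At 538 counts or more per member and sample, the counting error of reads was small beside the spread between samples. RNA was amplified, and error from sampling the input molecules was not measured.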
